A study of Mus musculus with 4 samples.

Results

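The genes described here are 34 interferon-stimulated genes, the transcripts that cells raise when an interferon binds its receptor, followed through the cell types of dystrophic mouse muscle. They were found by their symbols among the 32286 features of the count matrices, and all 34 had a feature. A group of 9 genes that answer mainly to type I interferon (Isg15, the Ifit genes and the Oas genes) was kept apart from a group of 8 that answer strongly to type II interferon (the Gbp genes, Irgm1, Igtp and Iigp1). The other 17 members were described on their own. The measurements were single-cell RNA sequencing of skeletal muscle cells from a mouse model of Duchenne muscular dystrophy, with 1 library in each of 4 groups. Muscle had been given vehicle or LNP-CRISPR, which is genome-editing cargo in lipid nanoparticles, and cells were taken either in bulk or through a satellite cell isolation kit (called kit below). Strain, age, dose, time after dosing and the number of animals behind a library are not given in the sources used here. With 1 library per group there was no replicate and no test, so a difference between treatments cannot be told apart from a difference between animals or preparations.

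Type I interferons bind the receptor IFNAR, and a complex that includes STAT2 and IRF9 then binds a DNA element called ISRE in front of its target genes. Type II interferon binds the receptor IFNGR, and its signalling acts through a different element, GAS. The targets overlap, because type II signalling induces IRF1, which itself binds ISRE-like DNA, and because IRF7 feeds back on type I interferon production. In muscle, interferon-stimulated genes are known from inflammatory myopathies, and nucleic acids delivered from outside can trigger sensors that lie upstream of interferon.

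The promoters of 5 members show the ISRE and GAS elements. Each line gives 130 bases, from 150 to 21 bases before the annotated start, read 5′ to 3′ on the gene's strand, from the RefSeq promoter table of build GRCm38.p6. Capitals mark the ISRE core (GAAANNGAAA, or TTTCNNTTTC when read on the other strand) in the first 3, and the GAS core (TTCNNNGAA) in the last 2.
Isg15, chr4:156200839-156200968, minus strand: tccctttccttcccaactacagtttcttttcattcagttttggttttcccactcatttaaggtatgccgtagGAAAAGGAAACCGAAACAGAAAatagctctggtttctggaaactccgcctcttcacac
Ifit1, chr19:34640739-34640868, plus strand: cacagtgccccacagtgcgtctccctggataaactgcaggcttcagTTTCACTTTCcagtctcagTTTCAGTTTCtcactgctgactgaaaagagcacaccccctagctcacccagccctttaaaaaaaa
Gbp2, chr3:142620513-142620642, plus strand: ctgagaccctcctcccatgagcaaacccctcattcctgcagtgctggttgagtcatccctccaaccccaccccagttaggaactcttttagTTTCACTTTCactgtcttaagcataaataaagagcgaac
Gbp5, chr3:142496784-142496913, plus strand: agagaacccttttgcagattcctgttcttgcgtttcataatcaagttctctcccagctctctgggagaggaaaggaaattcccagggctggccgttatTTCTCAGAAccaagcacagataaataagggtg
Irf1, chr11:53769864-53769993, plus strand: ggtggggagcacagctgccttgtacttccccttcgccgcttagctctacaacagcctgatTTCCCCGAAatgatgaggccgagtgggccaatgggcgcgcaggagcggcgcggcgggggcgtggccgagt

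The Isg15 run holds 3 overlapping ISRE cores and the Ifit1 run holds 2 separate ones. The Gbp2 run holds 1, and the Irf1 promoter held a GAS core with no ISRE core. The Gbp5 promoter also held an ISRE core, 165 bases before the start and outside its run. A promoter in that table was matched for 26 of the 34 members. Over 250 bases before the start, 15 of the 26 (57.7%) held an ISRE core on either strand, against 3.46% of 27025 genes. A GAS core was found in 7 of the 26 (26.9%), against 8.13% of all genes. By group, 5 of the 8 matched type I members and all 6 matched type II members held an ISRE core, and the remaining members held it in 4 of 12. A GAS core was held by 2 of the 8, 3 of the 6 and 2 of the 12, so neither element was confined to 1 group. Ifit1, Ifit2, Ifit3 and Ifit3b lie together on chromosome 19 between 34550694 and 34650009, and Gbp2, Gbp3, Gbp5 and Gbp7 lie together on chromosome 3. A match of letters is a description of the window and shows no binding.

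Levels below are unique molecular identifiers (UMIs) of a gene per 1000000 nuclear-encoded UMIs, pooled over a class's cells in 1 library, and written CPM. A UMI counts 1 captured 3′ end, so CPM can be set side by side across genes without a length correction. Brackets and "interval" give exact 95% limits for counting error only, except after a median log2 ratio. There the brackets give the median of the members' lower limits and the median of their upper limits. Cells were clustered without the members and without the other interferon genes, and classes carry "-like" because they rest on marker genes. Bulk isolation gave mostly FAP-like cells (fibro-adipogenic progenitors, the connective tissue cells of muscle; 665 vehicle and 436 LNP-CRISPR cells) and macrophage or monocyte-like cells (203 and 180). The kit gave satellite-like cells (the muscle stem cells and their progeny; 453 and 509), fibre-like barcodes (279 and 290), glial-like cells (251 and 419) and pericyte or smooth muscle-like cells (142 and 302). The 10 FAP markers, all detected, summed to 43840 and 39860 CPM in the FAP-like cells. The libraries held 25921795 to 40666916 UMIs, and kept cells had a median of 22266 and 16042 UMIs in bulk and 8598 and 10396 in the kit libraries (vehicle, then LNP-CRISPR). Neutrophil-like cells made up 2.76% of the vehicle bulk cells and 13.5% of the LNP-CRISPR bulk cells. No more than 5 barcodes of any library were shared with another.

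Over all kept cells of a library, 33 of the 34 members were lower through the kit than in bulk in vehicle (the exception was Gbp4) and all 34 in LNP-CRISPR, beside 50.1% and 47% of all genes with at least 20 UMIs over both isolations. The isolations keep different classes, so these are not levels of the same cells. Isg15, a ubiquitin-like protein that is attached to other proteins, stood at 72.7 CPM in vehicle bulk, 110 in LNP-CRISPR bulk, 16.1 in vehicle kit and 32.1 in LNP-CRISPR kit. Ifit1, which binds foreign RNA ends, had 20.1, 58.8, 0.395 and 2.34 CPM in the same order. Gbp5, a GTPase that promotes inflammasome assembly, had 8.54, 25.7, 0.592 and 1.60 CPM. Each of these 3 was higher in the LNP-CRISPR library of its isolation. Irf1, a transcription factor induced by interferon gamma and by cytokines, had 93.9, 119, 43.9 and 76.6 CPM. Ifitm3, a membrane protein that blocks virus entry, had 1230, 1205, 430 and 479 CPM. Ifi27l2a had 256, 237, 9.94 and 3.74 CPM, lower in the LNP-CRISPR library of either isolation. Class make-up also differs between the treatments, so these differences are not those of a class. Pericyte or smooth muscle-like cells, which read Isg15 strongly, were 10.1% of vehicle kit cells and 16.1% of LNP-CRISPR kit cells. The part of class make-up was not tested.

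Ifitm3 was the most abundant member in FAP-like cells (1325 CPM in vehicle, 1376 in LNP-CRISPR), macrophage or monocyte-like cells (1438 and 1353) and dendritic-like cells (1936 and 1751), and had its lowest level in T or NK-like cells of the vehicle library (13.0 CPM, against 126 in LNP-CRISPR). These T or NK-like values rest on 33 and 50 cells. In LNP-CRISPR, 1 of the 50 held 162 of the 836 UMIs of the 17 members outside both groups, Ifitm3 among them. In T or NK-like cells Ly6e, a lipid-anchored surface protein, led with 733 and 723 CPM. Macrophage or monocyte-like cells also held Ifi27l2a at 953 and 830 CPM. Bst2, or tetherin, which holds budding virus at the membrane, was highest in dendritic-like cells at 215 and 316 CPM. Trim30a, a regulator of inflammatory signalling, stood at 89.3 and 116 CPM in macrophage or monocyte-like cells, and had no UMI in satellite-like or glial-like cells from the kit. FAP-like cells held it at a lower level, for example at 22.3 and 26.4 CPM (178 and 164 UMIs) in their cluster 4. Gbp4 reached 30.4 and 67.6 CPM in T or NK-like cells and stood at 0.268 and 0.801 CPM in FAP-like cells. Irf1 was read in every class of the LNP-CRISPR libraries, from 12.9 CPM in fibre-like barcodes and 26.6 CPM in macrophage or monocyte-like cells to 161 CPM in pericyte or smooth muscle-like cells of the bulk library.

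**Figure D1:**
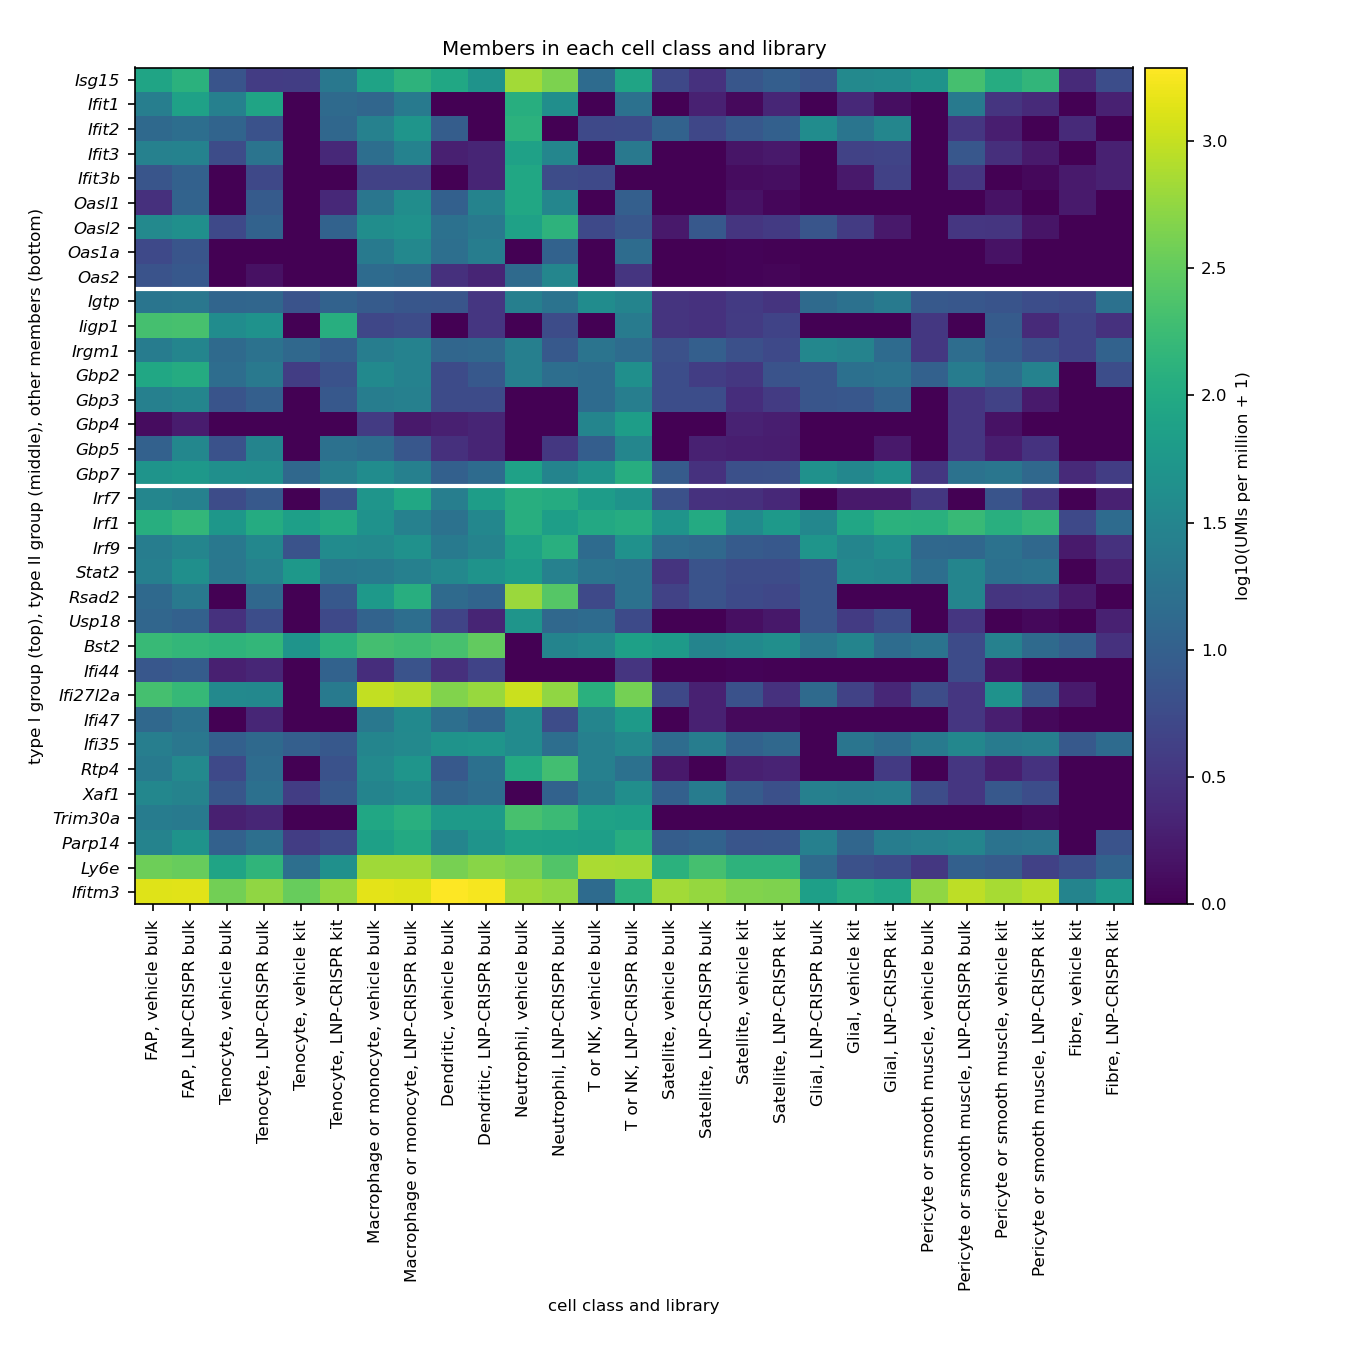
Levels of the 34 members (rows, by group) in each class and library with at least 20 cells (columns); colour is log10 of CPM with 1 added. Ifitm3 is bright in nearly every column, Iigp1 is brightest in FAP-like cells (210 CPM), and the fibre-like columns are nearly empty.

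Summed over the 9 type I members, the order of classes ran from neutrophil-like cells (1254 CPM in vehicle, interval 1019 to 1527; 720 in LNP-CRISPR, 641 to 807) through macrophage or monocyte-like cells (230 and 367) and FAP-like cells (199 and 320) to satellite-like cells from the kit (17.7 and 23.0) and fibre-like barcodes (4.38 and 7.94). Isg15 and Rsad2 led in the neutrophil-like cells, Isg15 with 672 and 438 CPM and Rsad2 (viperin, which makes a chain-terminating nucleotide) with 621 and 259. The neutrophil-like values of the vehicle library rest on 33 cells with a median of 1637 UMIs, and 24 of its 49 Rsad2 UMIs came from 1 cell. Type II members had another order. FAP-like cells led with 426 and 484 CPM, T or NK-like cells held 169 and 342, and satellite-like and fibre-like cells stood between 13.2 and 35.8 CPM. Iigp1, an immunity-related GTPase that attacks parasite vacuoles, gave FAP-like cells much of their lead with 210 CPM in both treatments, against 4.08 and 4.84 CPM in macrophage or monocyte-like cells. Neighbours in the type I order did not always separate: the vehicle FAP-like interval (193 to 205) lay below the vehicle macrophage or monocyte-like interval (213 to 248), while the vehicle dendritic-like interval (120 to 165) and the vehicle pericyte or smooth muscle-like interval from the kit (101 to 129) overlapped.

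**Figure D2:**
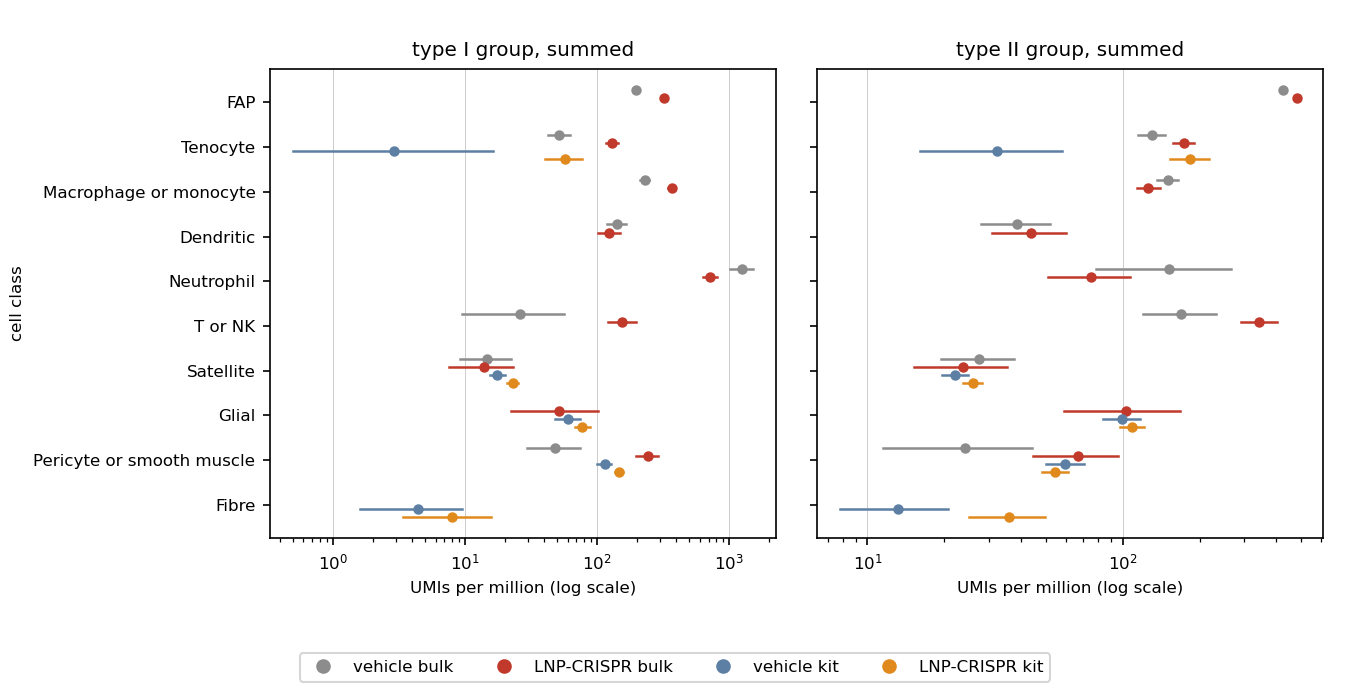
Summed level of the 9 type I members and of the 8 type II members (CPM, log axis) by class; each point is 1 library and the bar is the exact 95% counting interval. In FAP-like and macrophage or monocyte-like cells the type I points of LNP-CRISPR (320 and 367 CPM) lie above those of vehicle (199 and 230 CPM).

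In FAP-like cells, every one of the 9 type I members was higher in LNP-CRISPR than in vehicle, and the interval of the ratio lay above 1 for 6 of them. Oasl1, a negative regulator of Irf7 translation, stood at 1.88 CPM in vehicle and 10.3 in LNP-CRISPR, a ratio of 5.49 (3.88 to 7.91). Ifit1 stood at 24.2 and 75.1 CPM, a ratio of 3.11 (2.81 to 3.45), and Isg15 at 82.4 and 126 CPM, a ratio of 1.53 (1.44 to 1.64). Ifit3, a relative of Ifit1 at the same locus, was close to equal at 27 and 27.8 CPM, and Ifit2 at 12.5 and 14.5 CPM had an interval that included 1. So the members of the Ifit locus on chromosome 19 differed among themselves. The median log2 ratio of the 9 type I members was 0.58 (0.16 to 0.71), beside -0.05 over all 13692 genes with at least 20 UMIs. Summed, they stood at 199 and 320 CPM, a ratio of 1.61 (1.54 to 1.67).

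Among type II members of FAP-like cells, Gbp5 stood apart with 9.51 CPM in vehicle and 32.7 in LNP-CRISPR, a ratio of 3.44 (2.93 to 4.06). Gbp2, a GTPase recruited to pathogen vacuoles, was at 90.2 and 105 CPM, and Irgm1, which regulates the other immunity-related GTPases, was at 23.0 and 30.2 CPM. Iigp1 was level, with 210 CPM in both libraries and a ratio of 1.0 (0.958 to 1.05). Igtp, another GTPase of that family, had 18.1 and 19.3 CPM. The 7 measured type II members had a median log2 ratio of 0.20 (0.04 to 0.32). Gbp4 had 6 and 12 UMIs and was not measured, where measured means at least 20 UMIs over both libraries.

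The transcription factors and other members of FAP-like cells were mixed in direction. Stat2, a subunit of the type I complex, stood at 24.9 and 41.9 CPM, a ratio of 1.68 (1.5 to 1.89), and its partner Irf9 at 23.6 and 30.5. Rsad2 (12.4 and 20.4 CPM), Rtp4 (20.8 and 33.9) and Parp14, an ADP-ribosyltransferase (28.9 and 47.4), were also higher by at least 1.5-fold. Irf1 was at 113 and 148 CPM, a ratio of 1.31 (1.24 to 1.39). On the lower side, Irf7, the amplifier of type I interferon production, stood at 31.3 and 26.4 CPM, a ratio of 0.844 (0.744 to 0.956), Ifi27l2a at 205 and 157 CPM, a ratio of 0.763 (0.726 to 0.803), and Ifi35 at 24.3 and 19.0 CPM, a ratio of 0.781 (0.674 to 0.903). Bst2 (0.904) and Ly6e (0.922) lay just under 1. In all, 9 of the 33 measured members were higher by at least 1.5-fold and 0 were lower, while over all genes 3.56% were higher and 6.63% lower by that fold. Markers of other cells moved in the same class: the 9 neutrophil markers, all detected, summed to 35.5 CPM in vehicle and 77.4 in LNP-CRISPR. The 10 macrophage or monocyte markers, all detected, summed to 30.3 and 63.8 CPM, and 4 of 5 erythroid markers to 2.19 and 60.8. Their part in the member values was not tested.

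The difference in FAP-like cells was not the same in each of the 5 clusters with at least 20 cells in both libraries. Cluster 4, led by the chemokine genes Cxcl5 and Cxcl9 and by Il1rl1, held 256 CPM of type I members in vehicle (188 cells) and 334 in LNP-CRISPR (171 cells). Cluster 9, led by Gdf10 and Cyp2f2, held 141 (169 cells) and 594 (75 cells), and cluster 17, led by Efemp1 and the adventitial progenitor gene Pi16, held 111 (78 cells) and 424 (46 cells). Cluster 20, led by Ccl20 and Ccn5 with the cycling gene Mki67, went the other way, with 232 (48 cells) and 132 CPM (33 cells). Without the type I UMIs of the cell that held most of them, the pairs were 133 and 472 CPM in cluster 9, 84.7 and 236 in cluster 17, and 142 and 96.8 in cluster 20. Here and below, leaving out a highest cell takes away its UMIs of the gene or group and keeps its total in the divisor. Cluster 6, led by Angptl1, Dlk1 and Col6a6, held 173 and 244 CPM of type I members, while its type II members stood at 491 and 313.

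Several single genes followed these clusters, but not every member did. Isg15 was nearly level in cluster 4 (130 CPM in vehicle and 150 in LNP-CRISPR), higher in cluster 9 (42.7 and 184 CPM, a ratio of 4.31, 3.56 to 5.25) and cluster 17 (36.7 and 183), and lower in cluster 20 (88.4 and 35.9, a ratio of 0.406, 0.319 to 0.513). Ifit1 had 21.7 and 224 CPM in cluster 9, a ratio of 10.3 (8.12 to 13.3), against 26.9 and 35.7 in cluster 6 and 29.6 and 26.5 in cluster 20. Ifit3, level over the class, had 15.4 and 53.9 CPM in cluster 9 and 29.6 and 9.07 CPM in cluster 20. The level value of Iigp1 also hid opposite values: 285 and 333 CPM in cluster 4, and 268 and 116 CPM in cluster 6. Gbp5 was higher in cluster 4 (4.14 and 28.8 CPM) and cluster 17 (7.26 and 70.7 CPM), and at 7.75 and 7.18 CPM in cluster 20. In cluster 9, Irf7 (0.633, 0.439 to 0.897), Bst2 (0.630, 0.521 to 0.758) and Ifi27l2a (0.642, 0.552 to 0.744) were lower. Of 32 measured members there, 18 were higher and 3 lower by at least 1.5-fold. Cluster 4 had 12 higher and 0 lower of 33, and cluster 6 had 4 higher and 3 lower of 33. The share over all genes was not calculated per cluster, so these counts have no background to be read against. Ifi27l2a was also lower in cluster 17 (824 and 449 CPM) and higher in cluster 4 (93.4 and 125 CPM). Whether the clusters differ in their treatment ratio was not tested.

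**Figure D3:**
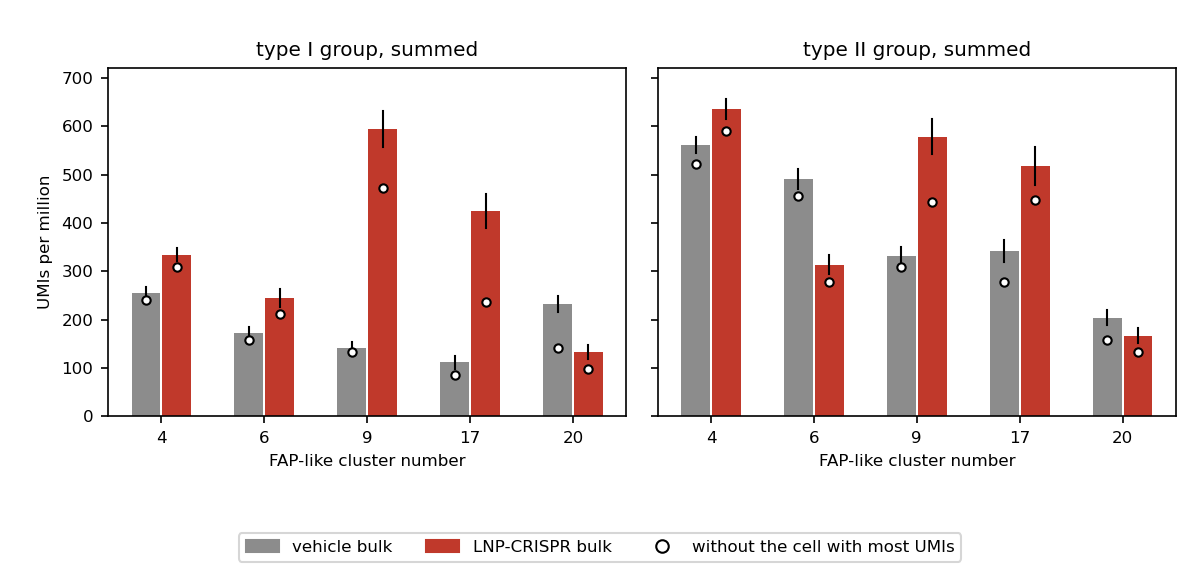
Summed type I and type II levels (CPM, bars from 0) in each FAP-like cluster with at least 20 cells in both the vehicle and LNP-CRISPR bulk library. Lines are exact 95% counting intervals, and white points leave out the group's UMIs of the cell with most of them. Type I members are higher in LNP-CRISPR in clusters 4, 6, 9 and 17 and lower in cluster 20 (232 CPM in vehicle, 132 in LNP-CRISPR).

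Macrophage or monocyte-like cells shared the higher type I level but not the type II values. Their 9 type I members summed to 230 CPM in vehicle and 367 in LNP-CRISPR, a ratio of 1.60 (1.45 to 1.76), with 8 of 9 higher and a median log2 ratio of 0.73 (0.33 to 1.36) beside -0.04 over 9412 genes. That median was 0.20 when each cell had the same weight. Isg15 stood at 80.8 and 134 CPM, a ratio of 1.66 (1.41 to 1.96) that was 1.44 with a stricter cell filter, 1.46 with interferon genes in the clustering and 1.44 with equal weight per cell. Ifit2, which can promote cell death, was at 26.5 and 50.9 CPM, but 50 of 78 and 56 of 147 UMIs came from 1 cell each, and without those cells its ratio was 3.31. Ifit3 was at 14.6 and 27.3 CPM, a ratio of 1.87 (1.28 to 2.78) and of 1.12 without the highest cells. Oasl1 was at 18.7 and 40.5 CPM, a ratio of 2.17 (1.56 to 3.04), and Oas1a, which makes the messenger that activates RNase L, at 21.4 and 33.6.

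The type II members of macrophage or monocyte-like cells summed to 150 and 126 CPM, a ratio of 0.839 (0.728 to 0.966), but 1 vehicle cell held 25.1% of the vehicle UMIs. In the C1q-rich cluster 7, which holds that cell, they stood at 166 and 138 CPM, and at 114 and 113 CPM without the highest cell of either library. Gbp5 stood at 13.6 and 6.92 CPM, a ratio of 0.509 (0.282 to 0.892), where 21 of the 40 vehicle UMIs came from 1 cell. That ratio became 0.858 when the highest cell of either library was left out. Gbp7 stood at 39.1 and 25.9 CPM, a ratio of 0.664 (0.490 to 0.896), and Gbp2 at 35.7 and 27.7. The median log2 ratio of the 7 measured ones was -0.24 (-0.97 to 0.62). Irf1, which type II signalling induces directly, was also lower, at 46.2 and 26.6 CPM, a ratio of 0.577 (0.430 to 0.768) that was 0.648 without the highest cells. Irf7 was higher, at 51.3 and 89.3 CPM, a ratio of 1.74 (1.42 to 2.14), and so was Rsad2, at 57.7 and 112 CPM, a ratio of 1.95 (1.61 to 2.36). Rsad2 fell short of 1.5-fold under the same settings, at 1.34, 1.37 and 1.48 (stricter filter, interferon genes in the clustering, equal weight). Ifi47 and Ifi44 were also higher, with 19.7 and 35.6 CPM and with 5 and 17 UMIs. In all, 10 of 33 measured members were higher and 3 lower by at least 1.5-fold, beside 5.79% and 7.97% of all genes. Within the class, cluster 7 held 207 and 382 CPM of type I members. Cluster 16, led by Chil3 and the monocyte gene Ly6c2, held 290 and 330, and 222 and 187 without its highest cell. Neutrophil markers in the class, 9 of 9 detected, summed to 331 and 462 CPM, and T or NK markers, 5 and 6 of 11 detected, to 98.2 and 174 CPM. Their part was not tested.

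Tenocyte-like cells, the fibroblasts of tendon and its muscle junction, had few type I molecules, and most came from a handful of cells. The 9 type I members summed to 51.6 CPM in 80 vehicle cells and 131 CPM in 109 LNP-CRISPR cells, and the 10% of cells with most of them held 82.4% and 94.4% of those UMIs. Ifit1 stood at 25.8 and 82.7 CPM, a ratio of 3.21 (2.36 to 4.41), yet 52 of the 54 vehicle UMIs came from 1 cell. Leaving out the highest cell of either library gave a ratio of 45.0. Gbp5 stood at 5.73 and 29.1 CPM, a ratio of 5.07 (2.73 to 10.3) that was 2.68 without the highest cell of either library. Rsad2 had 0 UMIs in vehicle and 28 in LNP-CRISPR, at least 8.0-fold higher when the vehicle library is set at 3 counts. Oasl1 had 0 and 19 UMIs, at least 5.43-fold higher on the same floor. Ifit3 was at 4.78 and 17.2 CPM, a ratio of 3.60 (1.78 to 8.04) that was 6.0 without the highest cells and 1.26 with equal weight per cell. Isg15 was low and in the other direction at 6.21 and 2.86 CPM, from 13 and 7 UMIs, with an interval that included 1 (0.156 to 1.24) and a ratio of 0.734 without the highest cells and 0.807 with equal weight, and Ifit2 likewise at 10.5 and 5.73 CPM (0.258 to 1.11).

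Several more abundant members of tenocyte-like cells were also higher. Irf1 stood at 54.0 and 103 CPM, a ratio of 1.91 (1.53 to 2.41), Ly6e at 81.7 and 140 CPM, a ratio of 1.71 (1.42 to 2.07) that was 1.34 with equal weight per cell, and Ifitm3 at 383 and 546 CPM, a ratio of 1.43 (1.31 to 1.56). Rtp4 (3.14), Xaf1, which promotes apoptosis (2.33), Oasl2 (2.29) and Irf9 (1.65) had intervals above 1. Bst2 was close to equal at 137 and 148 CPM, as was Gbp7 at 42.0 and 40.9. Of 25 measured members, 12 were higher and 2 lower by at least 1.5-fold, beside 7.31% and 10.1% of all genes. The 9 neutrophil markers summed to 16.2 CPM in vehicle (7 detected) and 88 in LNP-CRISPR (8 detected) in this class. Erythroid markers, 3 of 5 detected in either library, summed to 3.82 and 34.4 CPM. Their part was not tested. Tenocyte-like cells from the kit numbered 24 and 37, with type I members at 2.93 and 56.9 CPM and type II members at 32.2 and 184 CPM, and 1 cell held 47.3% of the latter.

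Dendritic-like cells, which present antigen, had 21 measured members, and the type I genes were split. Isg15 stood at 90.8 CPM in 57 vehicle cells and 48.4 in 59 LNP-CRISPR cells, a ratio of 0.533 (0.361 to 0.774), but 41 of 99 vehicle UMIs came from 1 cell. The ratio was 0.821 without the highest cells, and its direction turned with a stricter cell filter (1.2), with interferon genes in the clustering (1.15) and with equal weight per cell (1.46). Oasl1 stood at 9.17 and 28.3 CPM, a ratio of 3.09 (1.42 to 7.23) that was 20.8 with equal weight per cell. Irf7 stood at 24.8 and 67.3 CPM, a ratio of 2.72 (1.69 to 4.47), and of 1.69 without the highest cell. Bst2 was at 215 and 316 CPM, a ratio of 1.47 (1.23 to 1.76), and Irf1 at 16.5 and 31.9 CPM, a ratio of 1.93 (1.02 to 3.72). Ifitm3 was slightly lower at 1936 and 1751 CPM, a ratio of 0.905 (0.846 to 0.967), and Ifi47 had 16 and 9 UMIs. The median log2 ratio of the 4 measured type I members was 0.52 while their summed ratio was 0.877 (0.678 to 1.13), so the median and the sum differed in direction. Of the 21, 6 were higher and 1 lower by at least 1.5-fold, beside 10.4% and 12.7% of all genes. Markers of other cells differed in this class. The 6 B cell markers, all detected, summed to 185 CPM in vehicle and 519 in LNP-CRISPR. The 10 macrophage or monocyte markers summed to 3282 and 4866 CPM, and the 9 neutrophil markers (6 and 8 detected) to 45 and 199. The 10 FAP markers went the other way, at 936 and 603 CPM. Their part was not tested.

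Satellite-like cells from the kit held little of most members. Type I members summed to 17.7 CPM in vehicle and 23.0 in LNP-CRISPR, a ratio of 1.30 (1.11 to 1.53), and type II members to 22.1 and 25.8 CPM, a ratio of 1.17 (1.01 to 1.35). The median log2 ratio of the 5 measured type I members was 0.35, and 1.34 with equal weight per cell. The clusters differed: in cluster 2, led by Chrdl2, Erfe, Calcr and the stem cell gene Pax7 (229 and 221 cells), type I members stood at 48.3 and 63.9 CPM and type II members at 55.9 and 102 CPM, or 47.6 and 80.4 CPM without the highest cell. In cluster 8, led by histone genes (114 and 124 cells), they stood at 8.12 and 12.5 CPM and at 8.61 and 7.55 CPM. Irf1 stood at 36.3 and 57.5 CPM, a ratio of 1.58 (1.43 to 1.77), with a UMI in 42.6% and 61.1% of cells. Isg15 stood at 6.63 and 8.49 CPM, a ratio of 1.28 (0.986 to 1.67) that was 1.63 without the highest cells and 2.38 with equal weight. Ifit1 had 3 and 26 UMIs, a ratio of 5.67 (1.74 to 29.3). Gbp2 stood at 2.46 and 5.95 CPM, a ratio of 2.42 (1.64 to 3.67), but 53 of 122 LNP-CRISPR UMIs came from 1 cell, and leaving the highest cells out gave 1.56, while equal weight per cell gave 4.26. Ifi27l2a was lower, at 5.74 and 1.90 CPM, where 49 of 77 vehicle UMIs came from 1 cell and the ratio, 0.332, became 0.608 without the highest cells, and Xaf1 stood at 7.75 and 5.37 CPM, a ratio of 0.692 (0.525 to 0.914). Ifitm3 (462 and 453 CPM), Ly6e (132 in both) and Bst2 (35.6 and 41.0) carried most member molecules and were nearly level. Of 26 measured members, 4 were higher and 1 lower by at least 1.5-fold, beside 2.97% and 7.46% of all genes. In bulk, where 35 and 29 satellite-like cells were kept, Irf1 stood at 49.1 and 101 CPM and type I members at 14.7 and 13.9 CPM.

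Glial-like cells had 16 measured members. Parp14 stood at 11 and 23.7 CPM, a ratio of 2.15 (1.24 to 3.97), Ifit2 at 17.9 and 31.7 CPM, a ratio of 1.77 (1.14 to 2.85) that was 1.34 with equal weight per cell, and Irf1 at 86.0 and 123 CPM, a ratio of 1.43 (1.17 to 1.77). Irgm1 was lower at 28.9 and 13.0 CPM, a ratio of 0.450 (0.284 to 0.714), and Bst2 at 29.6 and 13.4 CPM, a ratio of 0.451 (0.286 to 0.711) that was 0.831 without the highest cells. Isg15 was level at 34.4 and 37.7 CPM. Rsad2, Oas1a, Oas2, Oasl1, Ifi44, Ifi47, Iigp1 and Gbp4 had no UMI in either glial-like library. The counts were 2 higher and 2 lower of 16, beside 7.28% and 5.25% of all genes, and the median log2 ratio of the 5 measured type II members was 0.43 (-0.53 to 1.05).

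Fibre-like barcodes had a median of 1668 and 1652 UMIs, and only Igtp, Ifitm3 and Ifi35 reached 20 UMIs. Igtp stood at 4.38 and 15.9 CPM, a ratio of 3.63 (1.35 to 11.3), from 6 and 16 UMIs, and of 1.83 with the stricter filter. Ifitm3 stood at 29.2 and 57.6 CPM, a ratio of 1.97 (1.30 to 3.03), and Ifi35 at 7.31 and 12.9 CPM with an interval that included 1. All 3 were higher by at least 1.5-fold and 0 lower, but so were 26.1% of all genes against 5.16% lower, and the median log2 ratio over all genes was 0.21. No fibre-like barcode held 3 or more type I members, in 279 and 290 barcodes, and the interval for that share reaches 1.31% and 1.26%.

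Pericyte or smooth muscle-like cells, the mural cells of vessels, read Isg15 strongly and few other type I members. Isg15 stood at 106 CPM in vehicle kit and 145 in LNP-CRISPR kit. Its ratio was 1.37 (1.18 to 1.58), and 1.06 with the stricter filter. Isg15 made up 244 of 262 and 788 of 804 type I UMIs. Gbp2 stood at 13.9 and 27.8 CPM, a ratio of 2.0 (1.36 to 3.02) that was 1.4 with the stricter filter. Ifitm3 stood at 717 and 884 CPM, a ratio of 1.23 (1.17 to 1.31) that was 1.08 with that filter. Irf1 stood at 118 and 150 CPM, a ratio of 1.27 (1.10 to 1.46) that was 1.52 with that filter. Several members were lower. Ifi27l2a stood at 47.1 and 6.82 CPM, a ratio of 0.145 (0.097 to 0.212), but the 108 vehicle UMIs came from 4 cells and 71 of them from 1. Iigp1 had 18 and 8 UMIs, a ratio of 0.188 (0.071 to 0.454) that was 0.496 with the stricter filter and 0.338 without the highest cells. Bst2 stood at 26.6 and 12.7 CPM, a ratio of 0.478 (0.334 to 0.687). That ratio was 0.292 with the stricter filter and 0.997 without the highest cells. Ly6e had 18 UMIs in either library, at 7.84 and 3.32 CPM, and its direction turned to 2.40 without the highest cells, because 15 of the 18 vehicle UMIs came from 1 cell. Irf7 had 14 and 13 UMIs, a ratio of 0.393 (0.170 to 0.901) that was 0.177 with the stricter filter. Of 17 measured members 1 was higher and 7 lower by at least 1.5-fold, beside 6.06% and 9.89% of all genes. Among the 11 measured members outside both groups, the median log2 ratio was -0.50 while the summed ratio was 1.14 (1.08 to 1.19). The make-up of the class differed between the kit libraries. At a finer cluster resolution of 2.0, a cluster led by Pln and Rergl held 103 vehicle and 138 LNP-CRISPR kit cells. A cluster led by Apold1 and Procr held 39 and 164. The part of this make-up in the ratios was not tested.

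**Figure D4:**
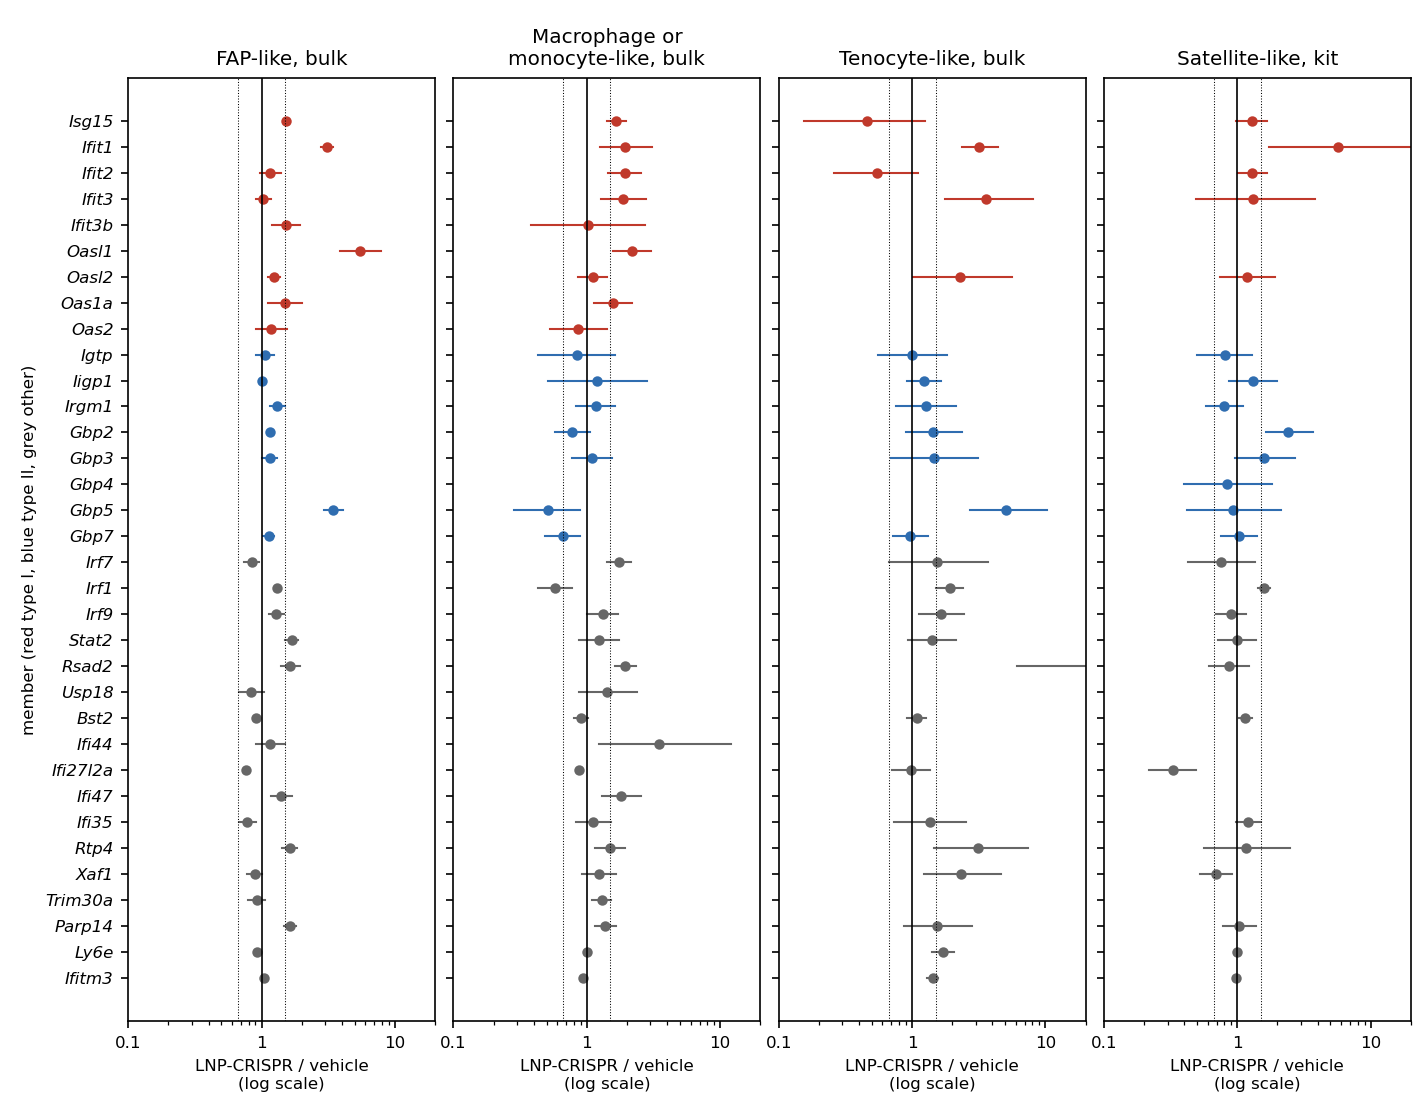
Ratio of LNP-CRISPR to vehicle (log axis) of each measured member in 4 of the 8 comparisons, with exact 95% counting intervals; the solid line marks 1, the dotted lines 1.5-fold in either direction, and a line with no point a member with 0 vehicle UMIs. Oasl1, Ifit1 and Gbp5 of FAP-like cells lie to the right (5.49, 3.11 and 3.44), and Irf1 lies right of 1 in 3 of the panels and left of it in macrophage or monocyte-like cells (0.577).

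Irf1 was higher in 6 of the 7 comparisons in which it was measured and lower in macrophage or monocyte-like cells. Ifitm3 lay between 0.823 and 1.43 in all comparisons but the fibre-like one. The lowest of these, in glial-like cells, was 1.18 without the highest cells, 1.08 with equal weight and 1.04 with called doublets kept. Gbp2 ranged from 0.776 in macrophage or monocyte-like cells to 2.42 in satellite-like cells. Without the highest cells those Gbp2 ratios were 0.972 and 1.56, and that of tenocyte-like cells, 1.45 as measured, was 3.60. Ifit1 was higher in each of the 4 classes in which it was measured. Differences between classes in these ratios were not tested.

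Members of the type I group were found together in a minority of cells. The 10% of FAP-like cells with most type I UMIs held 65.2% of them in vehicle and 67.2% in LNP-CRISPR, and in macrophage or monocyte-like cells the same share of cells held 71.2% and 73.5%. At least 3 of the 9 type I members were read in 26.8% of vehicle FAP-like cells (178 cells; 23.4 to 30.3%) and in 34.6% of LNP-CRISPR FAP-like cells (151 cells; 30.2 to 39.3%), at a median of 29074 and 29581 UMIs. With each cell thinned to 1000 UMIs, leaving out 2 and 3 shallower cells, the shares were 0.603% (0.165 to 1.54%) and 2.54% (1.28 to 4.50%). In macrophage or monocyte-like cells the shares were 15.3% and 18.3%, and 0.990% and 1.70% after thinning, with overlapping intervals. Satellite-like cells from the kit gave 0.883% and 2.16%, and fibre-like barcodes gave 0 of 279 and 0 of 290 at a median of 1668 and 1652 UMIs. That depth is far below the others, so the fibre-like share is set only beside the thinned ones: after thinning it was 0 of 203 and 0 of 210, with upper limits of 1.80% and 1.74%.

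FAP-like cells with at least 3 type I members also had more of the other members. Type II members stood at 906 CPM there and 190 CPM in the remaining vehicle cells, and at 897 and 206 CPM in LNP-CRISPR. Irf7 stood at 75.0 and 9.85 CPM in vehicle, and at 49.0 and 11.3 in LNP-CRISPR. Ifitm3 differed less, at 1695 and 1144 CPM in vehicle. These cells were deeper, with a median of 35472 against 26569 UMIs in vehicle and 35466 against 26611 in LNP-CRISPR, and the part of depth was not tested. In macrophage or monocyte-like cells chosen the same way, Rsad2 stood at 275 CPM against 6.71 in vehicle and 495 against 4.87 in LNP-CRISPR. Cxcl9, a chemokine induced by interferon gamma, stood at 492 against 2.10 CPM in vehicle and 3.16 against 13.3 in LNP-CRISPR, but 271 of the 281 vehicle Cxcl9 UMIs of the class came from 1 cell.

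The LNP-CRISPR libraries hold a Cas9 feature, so members could be described by the Cas9 UMIs of a cell. In LNP-CRISPR FAP-like cells, the 293 cells with at least 4 Cas9 UMIs held 391 CPM of type I members, and the 44 cells with none held 128 CPM, a ratio of 3.05 (2.57 to 3.65). Type II members stood at 585 and 234 CPM, a ratio of 2.50 (2.20 to 2.85). The median depth was 29620 and 22439 UMIs, and after thinning to 1000 UMIs the ratios were 4.96 and 4.38. Isg15 stood at 155 and 42.6 CPM, Ifit1 at 101 and 21.8, Gbp2 at 128 and 36.0, and Iigp1 at 264 and 104. Oasl1 had 144 UMIs in the first cells and 0 in the second. Ifit3b (0.573, 0.349 to 0.989) and Irf7 (0.662, 0.478 to 0.935) had the other direction, and Ly6e (1.07) and Bst2 (1.06) were level.

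The relation to Cas9 was not the same in each cluster or class. Within FAP-like cluster 4, cells with at least 4 Cas9 UMIs held 2.51 times the type I level (2.23 to 2.82) and 3.13 times the type II level (2.86 to 3.43) of cells with fewer. Within FAP-like cluster 6 the ratios were 1.02 (0.875 to 1.19) and 1.13 (0.987 to 1.29). The clusters with the highest type I level in LNP-CRISPR, 9 and 17, also had the highest Cas9 level, 3021 and 3142 CPM, against 867 and 885 in clusters 6 and 20. Over the macrophage or monocyte-like class the ratios against cells with none were 1.47 (1.27 to 1.71) for type I and 1.94 (1.47 to 2.58) for type II, and the other members stood lower, at 0.559 (0.534 to 0.584), led by Ifitm3 (802 and 2152 CPM), Ly6e (514 and 1042) and Ifi27l2a (602 and 1212). With cells of at least 1 Cas9 UMI in place of 4, the type I ratio was 1.06. The cells compared there came from different clusters: 63 of the 77 with at least 4 Cas9 UMIs were in cluster 7, and 27 of the 49 with none in cluster 16. Within cluster 7 alone, the type I ratio to cells with fewer was 4.11 (3.38 to 5.04), the type II ratio 4.31 (3.09 to 6.15) and that of the other members 1.06 (1.01 to 1.12). In tenocyte-like cluster 15 the type I ratio was 0.312 (0.201 to 0.473), from 28 and 30 cells at 21810 and 21743 UMIs. These held 31 and 93 type I UMIs, and 84 of the 93 came from 1 cell, so the direction rests on that cell. Cluster 19 gave 46.1 (15.5 to 226), from 20 and 31 cells at 34694 and 3716 UMIs. The second cells held 3 type I UMIs, and 1 of the first held 101 of the cluster's 195. The type II ratios of clusters 15 and 19 were 2.67 (1.98 to 3.64) and 7.93 (4.75 to 14.2).

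In pericyte or smooth muscle-like cells of the kit, 30 cells with at least 4 Cas9 UMIs and 162 with none gave a type I ratio of 0.533 and a type II ratio of 0.703, at a median depth of 21624 and 18524 UMIs. With cells of at least 1 Cas9 UMI the type I ratio was 0.946. Isg15 stood at 79.6 and 151 CPM there, a ratio of 0.527 (0.385 to 0.708). The type II ratio turned direction with at least 1 Cas9 UMI and thinning together (1.62). Satellite-like cells (83 and 309) gave 1.10 and 0.823, at 43100 and 21148 UMIs, and their type II ratio turned direction under each alternative: 1.12 with at least 1 Cas9 UMI, 1.11 after thinning and 2.0 with both. These are cells of 1 library each. Cas9 UMIs, like those of any transcript, can reach a barcode as free RNA, and the part of free RNA was not tested.

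**Figure D5:**
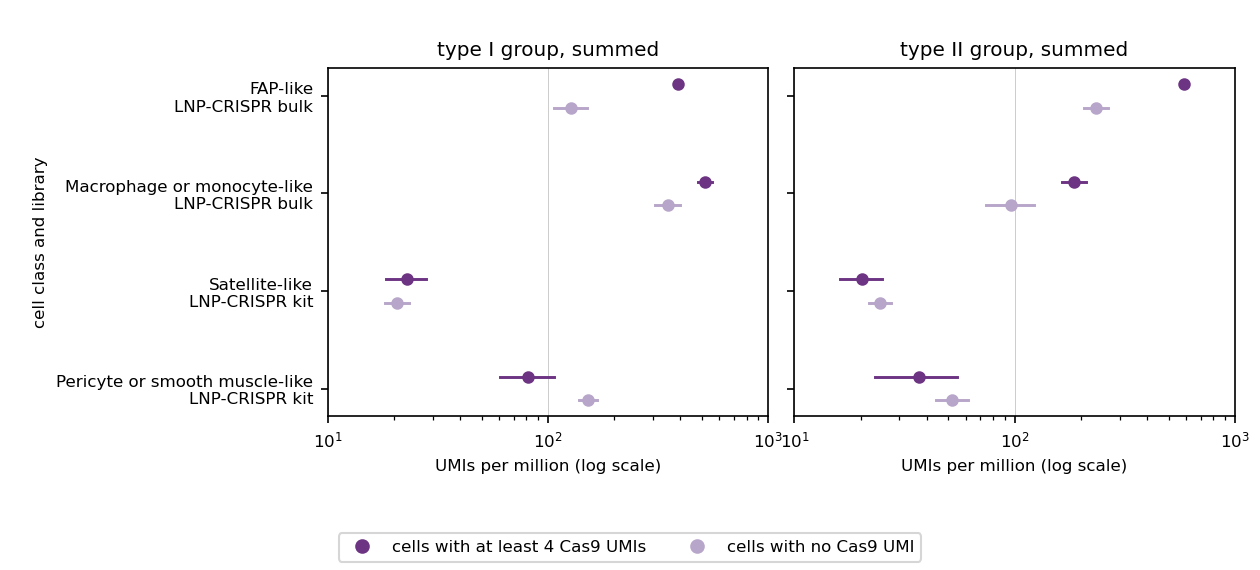
Summed type I and type II levels (CPM, log axis) in cells of the LNP-CRISPR libraries with at least 4 Cas9 UMIs and in cells with none, by class, with exact 95% counting intervals. FAP-like cells with Cas9 lie higher (391 against 128 CPM of type I members), and pericyte or smooth muscle-like cells with Cas9 lie lower.

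The interferons themselves were nearly absent from the libraries. Of 10 interferon genes looked for, Ifnb1 had 2 UMIs in vehicle bulk and 1 in LNP-CRISPR bulk, Ifnk had 1 in vehicle kit, and Ifna1, Ifna2, Ifna4 and Ifna5 had none. Ifng, the type II interferon of T and NK cells, had 16 and 26 UMIs in bulk and 2 and 4 through the kit. Their receptors were read in FAP-like cells at similar levels in both treatments: Ifnar1 at 37.2 and 42.5 CPM, Ifnar2 at 111 and 126, Ifngr1 at 143 and 148, and Ifngr2 at 53.3 and 60.1. The kinase gene Jak1 stood at 350 and 352 CPM. Of 18 measured receptor and signalling genes in FAP-like cells, 2 were higher by at least 1.5-fold (Irf5 at 1.86, Irf8 at 1.81) and 0 lower, beside 3.56% and 6.63% of all genes. Macrophage or monocyte markers in the FAP-like cells stood at 30.3 and 63.8 CPM, and their part in these values was not tested. Macrophage or monocyte-like cells gave 0 and 0 of 18, beside 5.79% and 7.97%, and satellite-like cells 0 and 0 of 18, beside 2.97% and 7.46%.

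Other interferon-induced genes outside the 34 members gave a few large values among many small ones. In FAP-like cells 5 of 42 measured genes were higher and 0 lower, beside 3.56% and 6.63% of all genes, with a median log2 ratio of 0.06. Cxcl10, a chemokine for activated T cells, stood at 115 and 644 CPM there, a ratio of 5.62 (5.38 to 5.87), Cxcl9 at 167 and 303 CPM, a ratio of 1.82 (1.74 to 1.90), and Ifih1, a sensor of long double-stranded RNA, at 41.3 and 78.1 CPM, a ratio of 1.89 (1.73 to 2.06). Cxcl10 was higher in each of the 5 FAP-like clusters compared, from a ratio of 2.35 in cluster 20 to 17.5 in cluster 9. In macrophage or monocyte-like cells 5 of 41 were higher and 1 lower, beside 5.79% and 7.97% of all genes. The lower one was Cxcl9, at 95.4 and 11.1 CPM, the gene of which 1 vehicle cell held 271 of 281 UMIs. Satellite-like cells had Cxcl10 at 18.3 and 45.5 CPM, a ratio of 2.48, among 3 higher and 5 lower of 29, beside 2.97% and 7.46% of all genes.

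The isolations could be set side by side where a class had at least 20 cells in both. Irf1 in vehicle pericyte or smooth muscle-like cells stood at 123 CPM in bulk and 118 through the kit, and Ifitm3 at 544 and 717. Isg15 in the same cells was at 48.1 and 106 CPM in vehicle, and at 207 and 145 CPM in LNP-CRISPR, where 51 of the 90 bulk UMIs came from 1 of 25 cells. In LNP-CRISPR tenocyte-like cells Bst2 (148 and 127 CPM) and Ifitm3 (546 and 568) were close, while Iigp1 stood at 46.7 and 113 CPM and Ly6e at 140 and 44.1. The isolations differ in handling and in the cells they keep, and the source of such differences cannot be told apart here.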

How the data were processed

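The 4 libraries of cells from skeletal muscle of a mouse model of Duchenne muscular dystrophy, 1 per group, were made with a 10x Genomics 3′ kit per the labels' protocols. The deposited matrices hold raw UMI counts per gene and barcode. Cell Ranger 5.0.1 stands in the matrix headers, whereas version 7.0.1 of that tool, with build mm10, stands in the submitters' processing notes, and the difference was not resolved. Symbols pair with identifiers in the deposited feature lists.

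Barcodes with under 200 genes or over 20% mitochondrial UMIs were left out (101 to 300 per library), as were 3 to 32 doublets per library called by Scrublet at a set rate of 0.05. This left 1198, 1149, 1403 and 1875 cells (vehicle bulk, LNP-CRISPR bulk, vehicle kit, LNP-CRISPR kit). In the vehicle bulk library the caller marked 6 cells, so doublets may remain. Cells were clustered with scanpy 1.11.5 and Leiden (leidenalg 0.10.2) at resolution 1.0, from 2000 variable genes, 30 components and 15 neighbours, without interferon genes, and classes were named from marker lists. UMIs were summed per class and library and divided by nuclear-encoded UMIs. Intervals are exact Poisson, conditional binomial for ratios and Clopper-Pearson for shares, at 95%, and cover counting error only. The range after a median log2 ratio is the median of the members' lower limits and of their upper limits, and is not a 95% limit of the median. Log2 ratios used 0.5 UMI as pseudocount, a gene was measured at 20 UMIs over both libraries, and comparisons needed 50 cells in each library. The calculations used Python 3.11.15, numpy 2.4.6, pandas 2.3.3 and scipy 1.17.1, and the ratio step was tested on simulated data.

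All 34 members could be named. In each comparison the 3 highest and the 3 lowest by the interval limit nearest 1 were taken first, 10 members were followed through the classes, and other genes came only from lists of 10 interferons, 19 receptor and signalling genes and 49 other induced genes, 46 of them among the features. The members and lists were chosen with earlier results of these data known. Alternatives were other cell filters, cluster resolution, pseudocount, UMI minimum and fold, thinning to 1000 UMIs, equal weight per cell, interferon genes allowed in clustering, and leaving out the highest cell. The last took away the UMIs of the gene or group in the cell with most of them, in each library, and left the divisor unchanged. For single genes that cell can differ from gene to gene. Levels per cluster and Cas9 strata within clusters were added after seeing the data. The result for 1 signalling gene is not reported here.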

Additional observations from a re-analysis of the deposited data

Results flagged for a closer look

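Gbp5, Irf1, Irf7, Isg15 and Ly6e were higher by at least 1.5-fold in LNP-CRISPR in one class and lower by at least that fold in another, each with a counting interval clear of 1. These ratios set 1 library against another, and the differences between classes were not tested.

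Gbp5, the GTPase of the type II group, stood at a ratio of 3.44 in FAP-like cells and 5.07 in tenocyte-like cells, and at 0.509 in macrophage or monocyte-like cells. Irf1 stood at 1.91 in tenocyte-like, 1.93 in dendritic-like and 1.58 in satellite-like cells, and at 0.577 in macrophage or monocyte-like cells. Irf7 stood at 1.74 in macrophage or monocyte-like and 2.72 in dendritic-like cells, against 0.393 in pericyte or smooth muscle-like cells.

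Isg15 stood at 1.53 in FAP-like and 1.66 in macrophage or monocyte-like cells, and at 0.533 in dendritic-like cells, where 1 cell held 41 of 99 vehicle UMIs. Ly6e stood at 1.71 in tenocyte-like and 0.423 in pericyte or smooth muscle-like cells, and the latter value turned to 2.40 without the highest cells. The low values of Gbp5 (0.858) and Isg15 (0.821) moved most of the way to 1 without the highest cells, while Irf1 in macrophage or monocyte-like cells was at 0.648. With equal weight per cell, Ly6e in tenocyte-like cells (1.34) and Isg15 in macrophage or monocyte-like cells (1.44) fell short of 1.5-fold.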

How the results depend on the processing

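No paired analysis was possible because each group has 1 library. For the same reason no library was left out, and no value here has a replicate error. Single cells held much of a member's UMIs in the small classes, fibre-like barcodes were shallow, and classes were rebuilt from markers.

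Of 115 alternative values of group medians, 112 stayed within the spread set for them. With equal weight per cell the median log2 ratio was 0.34 for type II members of FAP-like cells, 0.20 for type I of macrophage or monocyte-like cells and 1.34 for type I of satellite-like cells. Of 637 alternative member ratios, 587 stayed within it and 25 crossed 1. Of those 25, 21 belong to ratios within 1.5-fold, such as Ifitm3 of glial-like cells (0.823, and 1.18 without the highest cells). The other 4 belong to ratios past it: Isg15 of dendritic-like cells to 1.2 with the stricter filter (500 genes, 10% mitochondrial), 1.15 with interferon genes in clustering and 1.46 with equal weight per cell, and Ly6e of pericyte or smooth muscle-like cells to 2.40 without the highest cells. Of 301 alternative values of ratios past 1.5-fold, 26 no longer were. Of 316 summed levels, 237 stayed within it.

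With a fold of 2 in place of 1.5, FAP-like cells had 3 higher members, macrophage or monocyte-like 2 higher and 0 lower, tenocyte-like 7 and 1, dendritic-like 3 and 0, satellite-like 2 higher, glial-like 1 higher, fibre-like 1 higher and pericyte or smooth muscle-like 0 higher. With at least 100 UMIs, tenocyte-like cells had 4 higher and 0 lower of 10, dendritic-like 0 higher of 6, satellite-like 2 higher of 17, glial-like 1 and 0 of 8, fibre-like 0 higher of 0 and pericyte or smooth muscle-like 3 lower of 11. At that minimum the medians of type I and type II in tenocyte-like, type I in dendritic-like and satellite-like, and type II in glial-like and pericyte or smooth muscle-like cells were not run, as fewer than 3 members were left.

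After thinning, the shares of cells with at least 3 type I members were 0.603% and 2.54% in FAP-like and 0.990% and 1.70% in macrophage or monocyte-like cells. Of 36 alternative Cas9 ratios, 15 stayed within the spread. In FAP-like cells type I was 4.96 after thinning and 4.35 with at least 1 Cas9 UMI and thinning, and type II was 2.15 with at least 1 UMI, 4.38 after thinning and 3.76 with both. In macrophage or monocyte-like cells type I was 1.06 with at least 1 UMI and 0.981 with both, and type II 1.41 with at least 1. In pericyte or smooth muscle-like cells type I was 0.946 with at least 1 UMI and 0.300 after thinning, and type II turned direction to 1.62 with both. In satellite-like cells type II turned direction, to 1.12 with at least 1 UMI, 1.11 after thinning and 2.0 with both. Within clusters, against cells with fewer UMIs, the type I and type II ratios were 2.51 and 3.13 in cluster 4, 1.02 and 1.13 in cluster 6, and 4.11 and 4.31 in cluster 7, and type II of satellite-like cluster 8 was 0.314.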
